A study of Caenorhabditis elegans with 8 samples.

Results

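The metallothionein genes mtl-1 and mtl-2 and the zinc transporter genes cdf-1, cdf-2 and ttm-1 were followed in whole young adult Caenorhabditis elegans. They were taken by name, as 5 of the 41560 rows of the deposited expression table, and all 5 were found and passed the filter on low values. Worms of the wild-type strain N2 or of the daf-16(mgDf50) strain, a loss-of-function mutant in the FOXO transcription factor DAF-16, were grown at 20 °C on NGM plates seeded with Escherichia coli. The bacteria were BW25113 or a BW25113 strain knocked out for hns, the gene of the DNA-binding repressor H-NS. The 4 groups, wild type on BW25113, wild type on hns, daf-16 on BW25113 and daf-16 on hns, held 2 libraries each. The labels name no separate cultures for the 2 libraries of a group, so the spread behind each p-value may be technical. Each genotype was 1 strain, and a difference between strains cannot be told apart from any other difference in their background. Values were FPKM, fragment counts divided by transcript length and library size, so that levels are per length.

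Metallothioneins are small cysteine-rich proteins that bind zinc, copper and cadmium and are made in response to metals, heat and other stresses. In worms mtl-1 is known as a DAF-16 target and is expressed in the pharynx without induction, while both genes are induced in the intestine. Excess zinc binds the nuclear receptor HIZR-1, which then turns on cdf-2 and mtl-1. CDF-2 moves zinc into lysosome-related organelles of the intestine, known as gut granules, where it is stored. CDF-1 and TTM-1 export zinc, TTM-1 across the apical membrane into the gut lumen. The study's title concerns the activation of DAF-16 by bacteria without hns, and the genes were compared by food within each genotype and by genotype on each food.

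The loss of daf-16 was visible in its own transcript, which stood between 69.9 and 77.4 FPKM in the 4 wild-type libraries and between 15.8 and 19.2 FPKM in the 4 mutant libraries, so that it was reduced but not at 0. It was 4.12-fold lower in the mutant on BW25113 food and 4.34-fold lower on hns food (limma adjusted p = 0.000516 and 0.00032). Worm intestine, pharynx, hypodermis, muscle, neuron, germline and yolk markers were all detected, and no marker of these lists was at 0 in every library. The sources used here give no depth. Low values matched whole fragments best at 23700000 to 26400000 fragments per library, but only 55.2% to 58.6% of them came within 0.15 of a whole number, where values spread evenly would give 30%, so the depth is approximate. Library 1 of wild type on hns food had the highest summed pharynx and hypodermis markers, and the mtl-1 and cdf-2 results that rest on it are given with and without it.

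The 5 genes covered a wide range of levels. The second metallothionein gene, mtl-2, was by far the highest, with a mean of 1805 FPKM over the 8 libraries, more than 98.8% of the 14564 genes tested. The means of mtl-1 (31.7 FPKM), cdf-1 (25.5 FPKM) and ttm-1 (23.3 FPKM) were close together, and cdf-2 had the lowest mean at 6 FPKM. The order of mtl-1, cdf-1 and ttm-1 was not stable across groups, because mtl-1 was above both transporters in all 4 wild-type libraries and below both in all 4 mutant libraries. The ranges of cdf-1 (23 to 27.3 FPKM) and ttm-1 (21.2 to 25 FPKM) overlapped. Between the highest and the lowest of the 8 libraries mtl-1 differed 29-fold, cdf-2 1.67-fold, mtl-2 1.35-fold, cdf-1 1.18-fold and ttm-1 1.18-fold.

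**Figure D1:**
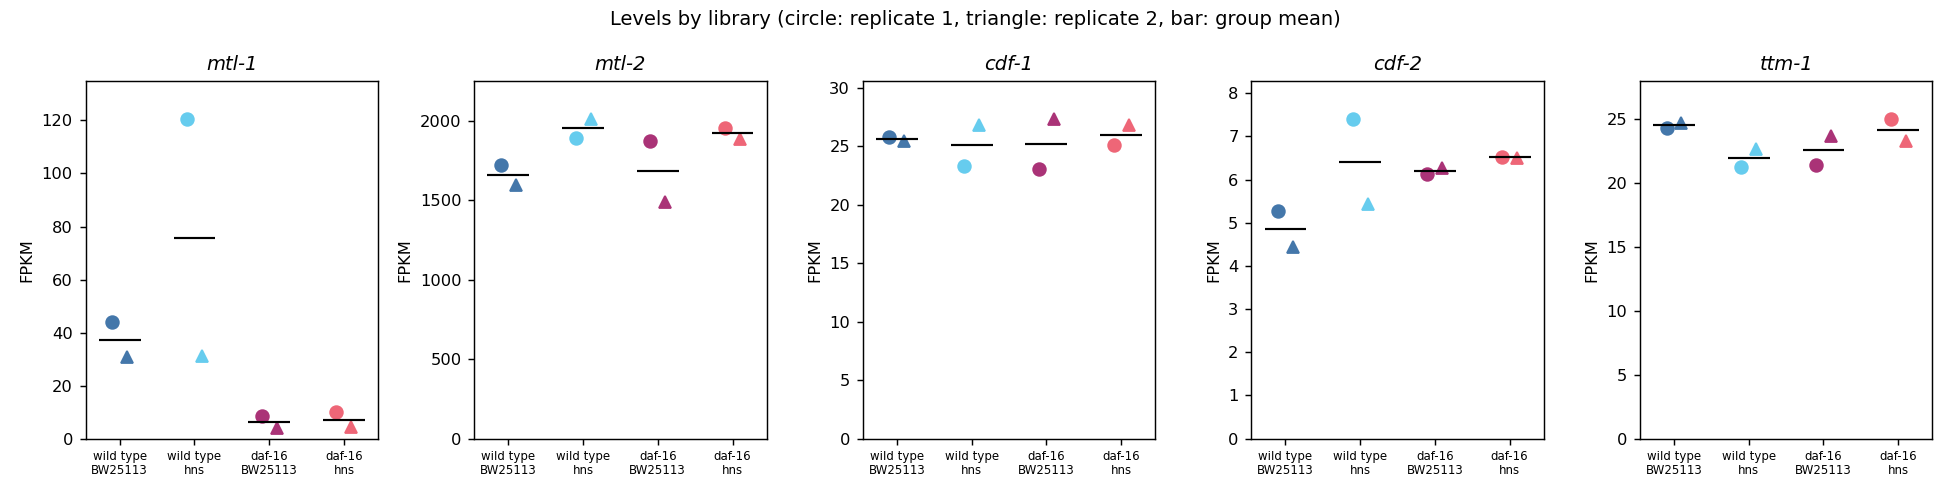
Level of each gene in the 8 libraries, in FPKM on a linear axis that starts at 0; circles are replicate 1, triangles replicate 2 and bars the mean of 2 libraries. The mtl-1 values of the mutant (4.15 to 10.2 FPKM) lie below every wild-type value (30.6 to 120 FPKM), while the other 4 genes show no such separation.

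The clearest difference among these genes was that of mtl-1 between genotypes. On BW25113 food mtl-1 stood at 44.1 and 30.6 FPKM in wild type and at 8.54 and 4.15 FPKM in daf-16, and on hns food at 120 and 31.3 FPKM in wild type and at 10.2 and 4.2 FPKM in daf-16. The lowest wild-type library was above the highest mutant library on both foods, a separation in either direction that 39.8% of all genes tested showed on BW25113 food and 34.8% on hns food. The ratio of the means, wild type over mutant, was 5.89 on BW25113 food and 10.5 on hns food. In whole animals fewer cells of a type and less RNA per cell cannot be told apart.

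In a limma fit over all 14564 genes, on the log2(FPKM + 1) scale that understates the change of low genes, these differences did not pass an adjusted p of 0.05. The log2 fold change of mutant over wild type was -2.43 ± 0.69 (SE, limma adjusted p = 0.328) on BW25113 food and -3.04 ± 0.69 (limma adjusted p = 0.287) on hns food. Averaged over both foods it was -2.73 ± 0.49, with a 95% interval for the ratio of mutant to wild type of 0.0665 to 0.34 (limma adjusted p = 0.0801). With 1 library left out this average ran from -3.21, without library 2 of wild type on hns food, to -2.26. Of 12 alternative fits 2 passed the threshold. All 4 mutant libraries were lower than all 4 wild-type libraries, a separation whose share over all genes was not counted. By size of the change, mtl-1 was 38th lowest on BW25113 food, 35th lowest on hns food and 16th lowest in the average. Its residual SD between libraries of a group was 0.861 on the log2 scale against a median of 0.13 over all genes, larger than that of 97% of genes.

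Of all genes tested, 0.261% were past the threshold by genotype on BW25113 food, 0.233% on hns food and 0.831% in the average over foods. None of the 5 zinc genes was among them. By limma, mtl-1 was the single member with an unadjusted p under 0.05 in each of these 3 comparisons, where 9.12%, 7.84% and 12.9% of all genes were under that level.

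The size of the mtl-1 difference on hns food rested in part on library 1 of wild type. Without that library the log2 fold change was -2.08 ± 0.57 (limma adjusted p = 0.749), and without library 2 it was -3.99 ± 0.57 (limma adjusted p = 0.151). Within replicate number 1 the wild type was above the mutant 5.17-fold on BW25113 food and 11.8-fold on hns food. Within replicate number 2 the ratios were 7.37 and 7.44.

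Food gave no such separation of mtl-1. In wild type the mean was 37.4 ± 9.55 FPKM on BW25113 food and 75.8 ± 63 FPKM on hns food (SD, n = 2), and the groups were interleaved, with 31.3 FPKM on hns food lying between the values of 30.6 and 44.1 FPKM on BW25113 food. The log2 fold change of hns over BW25113 food was 0.73 ± 0.69 (limma adjusted p = 0.575), and the 95% interval of the ratio ran from 0.523 to 5.26. Without library 1 on hns food it turned to -0.23 (limma adjusted p = 0.924). Within replicate number 1 the ratio was 2.73 and within replicate number 2 it was 1.02. In daf-16 the means were 6.35 ± 3.1 and 7.19 ± 4.23 FPKM (SD, n = 2), the groups overlapped and the log2 fold change was 0.12 ± 0.69 (limma adjusted p = 0.976). The food effect in wild type minus that in daf-16 was 0.61 ± 0.97 on the log2 scale (limma adjusted p = 1), with an interval for the ratio of the ratios of 0.298 to 7.79, so these libraries could not resolve a difference of several-fold in either direction.

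The replicate number moved with mtl-1. Library 1 was above library 2 in all 4 groups, 1.44-fold and 3.85-fold in wild type on BW25113 and hns food and 2.06-fold and 2.42-fold in daf-16. None of the other 4 members showed this in every group, and 15.4% of all genes tested did. Summed pharynx markers followed the same order, and so did the summed hypodermis and neuron markers. Of the 10 hypodermis markers 3, and of the 6 neuron markers 2, were higher in library 1 of every group. The summed level of the 5 markers myo-1, myo-2, tnc-2, tni-4 and ceh-22 was 226 and 148 FPKM in wild-type worms fed BW25113, 353 and 196 FPKM in wild-type worms fed hns, 164 and 149 FPKM in daf-16 worms fed BW25113 and 203 and 165 FPKM in daf-16 worms fed hns. Of these 5 markers 4 were higher in library 1 of every group. None passed the threshold by food or by genotype, where 0.233% to 1.76% of all genes did. All 5 had a negative log2 fold change by genotype averaged over foods, with a median of -0.48, and all 5 a positive one by food averaged over genotypes, with a median of 0.35. The ranges of the summed level were 148 to 353 FPKM in wild type and 149 to 203 FPKM in the mutant. The part of pharynx, hypodermis or neuron content in the mtl-1 values was not tested.

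**Figure D2:**
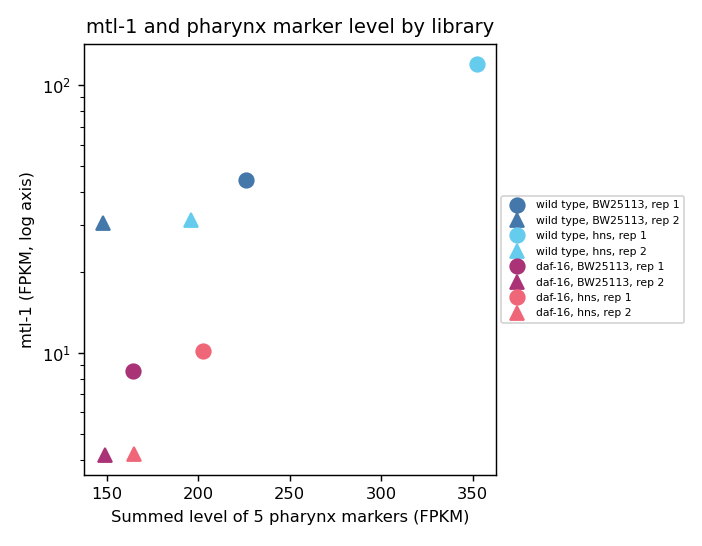
Level of mtl-1 in FPKM (log axis) against the summed level of 5 pharynx markers in FPKM (linear axis), 1 point per library, with circles for replicate 1 and triangles for replicate 2. The marker sum ran from 148 to 353 FPKM in wild type and from 149 to 203 FPKM in the mutant. The mtl-1 level ran from 30.6 to 120 FPKM in wild type and from 4.15 to 10.2 FPKM in the mutant. The part of pharynx content in mtl-1 was not tested.

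The lowest mtl-1 values rest on few fragments, and the part of counting noise in them was not tested. The annotated mtl-1 transcript is 373 nt long, short for fragment sequencing, so the number of fragments behind a value depends on how the usable length is computed. At the approximate depth above and with the length shortened by 200 nt, the mutant libraries would hold about 19 to 46 mtl-1 fragments. The wild-type libraries would hold 129 to 546. The full-length counts use a separate depth estimate, made with full lengths, which was lower in every library. With that estimate the mutant libraries would hold 34 to 84 mtl-1 fragments and the wild-type libraries 239 to 975. The mtl-2 transcript is 347 nt long and its FPKM carries the same dependence. The order of mtl-1 above cdf-1 and ttm-1 in most wild-type libraries lies within that uncertainty of length.

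The sister gene mtl-2 showed no separation by genotype. On BW25113 food its values were 1721 and 1597 FPKM for wild type and 1874 and 1493 FPKM for daf-16. On hns food they were 1896 and 2011 FPKM for wild type and 1959 and 1887 FPKM for daf-16. The mutant and wild-type libraries overlapped on both foods. The log2 fold change averaged over foods was -0.0048 ± 0.09 (limma adjusted p = 0.993), and the 95% interval for the ratio of mutant to wild type was 0.864 to 1.15. The upper end of the interval for mtl-1, 0.34, lay below this range.

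By food, both hns libraries of mtl-2 were above both BW25113 libraries in each genotype, where 54.2% of all genes were separated in either direction in wild type and 34% in daf-16. The means were 1659 ± 87.8 and 1953 ± 81.5 FPKM in wild type and 1684 ± 269 and 1923 ± 50.7 FPKM in daf-16 (SD, n = 2), ratios of 1.18 and 1.14. Averaged over genotypes the log2 fold change was 0.22 ± 0.09, with a 95% interval for the ratio of 1.01 to 1.34 (limma adjusted p = 0.247), which did not pass the threshold. Without library 2 of daf-16 on BW25113 food this average was 0.14, and the difference in daf-16, 0.2 ± 0.12, became 0.037. Without library 1 of that group the difference in daf-16 was 0.36. Of the genes tested, 1.76% passed it in that comparison.

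Because mtl-2 was so much higher, the sum of both metallothioneins followed mtl-2. It was 1765 and 1628 FPKM in wild-type worms fed BW25113, 2016 and 2042 FPKM in wild-type worms fed hns, 1883 and 1497 FPKM in daf-16 worms fed BW25113 and 1969 and 1891 FPKM in daf-16 worms fed hns. The share of mtl-1 in this sum was 1.53% to 5.97% in the wild-type libraries and 0.222% to 0.517% in the mutant libraries. The ratio of mtl-2 to mtl-1 ran from 15.7 to 64.3 in wild type and from 192 to 449 in daf-16, with no overlap.

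The vesicular zinc storage transporter gene cdf-2 had the lowest mean of the 5 over all libraries, although mtl-1 was lower than cdf-2 in library 2 of daf-16 on each food. Its values were 5.27 and 4.43 FPKM in wild-type worms fed BW25113, 7.39 and 5.44 FPKM in wild-type worms fed hns, 6.12 and 6.27 FPKM in daf-16 worms fed BW25113 and 6.53 and 6.51 FPKM in daf-16 worms fed hns. The wild type on BW25113 food held the lowest values of all, and both hns libraries were above both BW25113 libraries in each genotype. A separation by food in either direction was shown by 54.2% of all genes in wild type and 34% in daf-16. In daf-16 the ratio of the cdf-2 means was only 1.05. The log2 fold change by food was 0.33 ± 0.16 in wild type (limma adjusted p = 0.363) and 0.06 ± 0.16 in daf-16 (limma adjusted p = 0.945). By genotype it was 0.3 ± 0.16 on BW25113 food (limma adjusted p = 0.649) and 0.03 ± 0.16 on hns food (limma adjusted p = 0.993). None passed the threshold. The food difference in wild type was 0.14 without library 1 on hns food, 0.52 without library 2 and 0.088 with quantile normalization. Averaged over genotypes it was 0.2 ± 0.11 (limma adjusted p = 0.359), a ratio of hns to BW25113 food with a 95% interval of 0.95 to 1.39, and it was 0.10 without library 1 of wild type on hns food and 0.031 with quantile normalization.

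The zinc exporter genes cdf-1 and ttm-1 varied least. For cdf-1 the values were 25.8 and 25.4 FPKM in wild-type worms fed BW25113, 23.3 and 26.8 FPKM in wild-type worms fed hns, 23 and 27.3 FPKM in daf-16 worms fed BW25113 and 25.1 and 26.8 FPKM in daf-16 worms fed hns. The groups overlapped in all 4 comparisons. The 95% interval of the ratio averaged over the other factor was 0.883 to 1.14 for hns over BW25113 food and 0.886 to 1.15 for mutant over wild type (limma adjusted p = 0.961 and 0.973).

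For ttm-1 the values were 24.3 and 24.7 FPKM in wild-type worms fed BW25113, 21.2 and 22.7 FPKM in wild-type worms fed hns, 21.4 and 23.7 FPKM in daf-16 worms fed BW25113 and 25 and 23.2 FPKM in daf-16 worms fed hns. Both mutant libraries were below both wild-type libraries on BW25113 food and above them on hns food. A separation in either direction was shown by 39.8% of all genes tested on BW25113 food and 34.8% on hns food. The food effect in wild type minus that in daf-16 was -0.25 ± 0.12 on the log2 scale, a ratio with a 95% interval of 0.69 to 1.03 (limma adjusted p = 1), so the difference of the effects did not pass the threshold. Averaged over foods the ratio of mutant to wild type had an interval of 0.908 to 1.11, and averaged over genotypes the ratio of hns to BW25113 food had one of 0.886 to 1.08 (limma adjusted p = 0.986 and 0.776).

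**Figure D3:**
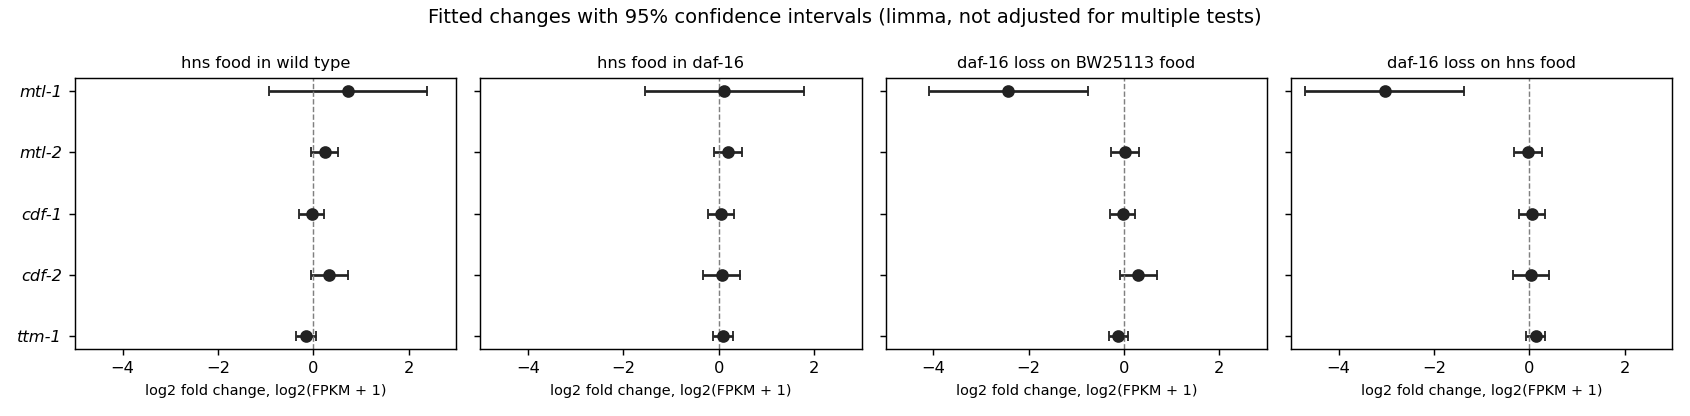
Fitted log2 fold change of the 5 genes in the 4 comparisons, hns over BW25113 food in each genotype and daf-16 over wild type on each food, with 95% intervals from the limma fit that are not adjusted for multiple tests. The intervals of mtl-1 by genotype lie below 0, and the intervals of the other 4 genes include 0 in every panel.

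By food, 0 of the 5 members passed the threshold in wild type, in daf-16 or in the average, where 0.872%, 0.405% and 1.76% of all genes did. By limma, 1 of 5 members, mtl-2, had an unadjusted p under 0.05 in the average over genotypes, a share near the 19% of all genes there, and 0 had one in wild type (15.7% of all genes) or in daf-16 (6.5%). Counted by groups that did not overlap, 3 of 5 members differed by food in wild type against 54.2% of all genes, mtl-2 and cdf-2 being higher and ttm-1 lower on hns food, and 2 of 5 in daf-16 against 34%. By genotype the counts were 3 of 5 on BW25113 food against 39.8% and 2 of 5 on hns food against 34.8%. With 5 members these shares are near those of all genes. In the interaction 0 of 5 passed the threshold, against 0.0961% of all genes, and by limma 0 were under an unadjusted p of 0.05, against 3.7%.

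Other zinc transporter genes were taken from lists written from general knowledge. The list for the cation diffusion facilitator (CDF) family, which exports zinc from the cytosol, held 13 genes including cdf-1, cdf-2 and ttm-1. All were tested and none passed the threshold in any of the 7 comparisons, where 0.0961% to 1.76% of all genes did. A count of 0 in so short a list is near those shares and does not show that the genes were unchanged. The median log2 fold change was -0.014 by food averaged over genotypes, against -0.0067 over all genes, and -0.00051 by genotype averaged over foods, against 0.0016. The summed level of the list lay between 478 and 538 FPKM in the 8 libraries. The value farthest from 0 by food belonged to K07G5.5, a gene the reference used here gives no name or role, with means of 12.5 ± 0.726 and 7.62 ± 1.63 FPKM in wild type and 13.2 ± 1.7 and 7.04 ± 1.71 FPKM in daf-16 on BW25113 and hns food (SD, n = 2; average log2 fold change -0.75 ± 0.14, limma adjusted p = 0.0646).

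Of the 14 listed genes of the ZIP family, which brings zinc into the cytosol, 12 were matched to the table and tested. Again none passed in any comparison, near the shares of 0.0961% to 1.76% over all genes. Their median log2 fold change was -0.08 by food averaged over genotypes and 0.05 by genotype averaged over foods. The summed level ran from 748 to 869 FPKM. The gene zipt-2.3, listed as Y54G9A.4, whose product releases zinc from gut granules, stood at 4.25 ± 0.705 and 5.21 ± 0.694 FPKM in wild type and at 4.69 ± 0.23 and 6.88 ± 1.06 FPKM in daf-16 on BW25113 and hns food (SD, n = 2), with an average log2 fold change by food of 0.35. The 11 gut granule genes included the Rab gene glo-1 and the transporter gene pgp-2. They had a median of -0.039 by food and 0.0013 by genotype in the averages. Of these genes 0 passed in any comparison, near the same shares of all genes.

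Among 6 regulators of these genes, daf-16 itself was the one past the threshold, by genotype on both foods. The zinc sensor gene hizr-1, listed as nhr-33, was low, at 3.56 ± 0.653 and 3.77 ± 0.225 FPKM in wild type and 3.34 ± 0.223 and 4.06 ± 0.42 FPKM in daf-16 on BW25113 and hns food (SD, n = 2). The intestinal GATA factor gene elt-2, needed for metallothionein expression in the gut, stood at 10.2 ± 2.19 and 13.1 ± 1.08 FPKM in wild type and at 12.1 ± 0.625 and 12.9 ± 0.493 FPKM in daf-16 (SD, n = 2), and did not pass. The summed level of the 10 intestine markers, which include elt-2, ran from 716 to 820 FPKM in wild type and from 688 to 835 FPKM in daf-16. Of the 10, 0 passed by food or by genotype, where 0.233% to 1.76% of all genes did.

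Of 11 cadmium and metal stress genes, 8 reached the filter. The genes numr-1, numr-2 and cdr-3 did not, and numr-1, a gene induced by cadmium, was listed at 0 in every library. The cadmium-responsive gene cdr-1 rose on hns food in the average over genotypes. Its values were 2.86 and 3.78 FPKM in wild-type worms fed BW25113, 8.46 and 6.1 FPKM in wild-type worms fed hns, 4.08 and 3.57 FPKM in daf-16 worms fed BW25113 and 8.89 and 7.33 FPKM in daf-16 worms fed hns. The 4 hns libraries were all above the 4 BW25113 libraries, a separation whose share over all genes was not counted. The log2 fold change was 0.92 ± 0.14 (limma adjusted p = 0.038). The call was lost without any 1 of the 8 libraries, without the filter and with quantile normalization, the adjusted p over all 12 alternatives running from 0.0312 to 0.156. The related gene hrg-2, also known as cdr-5 and described as a heme transport gene, fell in the same comparison by 2.19 ± 0.17 on the log2 scale (limma adjusted p = 0.00373) and passed in all 12 alternatives. Its level was 8 ± 1.91 and 1.18 ± 0.594 FPKM in wild type and 10.3 ± 1.42 and 1.25 ± 0.092 FPKM in daf-16 on BW25113 and hns food (SD, n = 2). The members of this list thus included 1 gene past the threshold in each direction, with a median of 0.12 by food averaged over genotypes. Of all genes 1.76% passed there in either direction. By genotype 0 passed, where 0.233% to 0.831% of all genes did. The nearest was cdr-4, with 22.8 to 26.2 FPKM in the wild-type libraries and 28.6 to 44.6 FPKM in the mutant libraries (log2 fold change averaged over foods 0.61 ± 0.1, limma adjusted p = 0.0592). Of 3 copper genes, the chaperone gene cuc-1 and the genes cua-1 and cutc-1, 0 passed in any comparison, against 0.0961% to 1.76% of all genes.

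**Figure D4:**
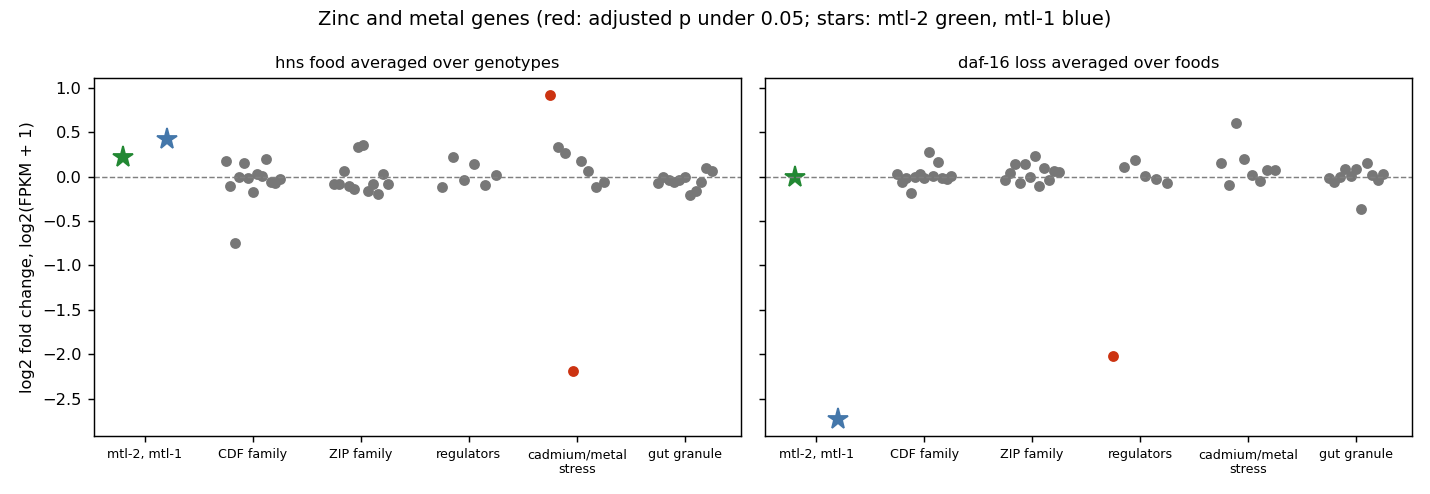
Log2 fold change on the log2(FPKM + 1) scale of the genes of 5 lists by food averaged over genotypes (left) and by genotype averaged over foods (right), 1 point per gene, with red for genes past an adjusted p of 0.05 and stars for mtl-2 and mtl-1. The red points are cdr-1 (0.92) and hrg-2 (-2.19) on the left and daf-16 (-2.02) on the right, where the mtl-1 star, at -2.73, is not past the threshold.

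Some hypodermis markers differed by food beside these genes. Of 10 markers, dpy-7, sqt-3 and wrt-10 rose on hns food in the average over genotypes, by 1.19, 1.14 and 1.06 on the log2 scale (limma adjusted p = 0.0403, 0.0145 and 0.0487), where 1.76% of all genes passed in either direction. Above 0 lay 9 of the 10, against 48.8% of all genes. In wild type alone 2 of 10 passed, sqt-3 and wrt-10 (limma adjusted p = 0.023 and 0.0482), against 0.872% of all genes. Both of these were lost without any single wild-type library. In daf-16 alone 0 of 10 passed, against 0.405%. The median was 0.954 in wild type and 0.313 in daf-16. The summed level was 184 to 213 FPKM on BW25113 food and 324 to 390 FPKM on hns food in wild type, and 231 to 257 and 274 to 336 FPKM in daf-16. Among 7 body wall muscle markers hlh-1 alone passed, rising by 0.7 (limma adjusted p = 0.031). The median of that list was 0.061, and 5 of the 7 lay above 0. Of the neuron, germline, oocyte and eggshell, sperm and vitellogenin markers 0 passed in any of the 7 comparisons, against 0.0961% to 1.76% of all genes. The calls of dpy-7, sqt-3, wrt-10 and hlh-1 in the average over genotypes depended on single libraries. Each was lost without library 1 or 2 of wild type on hns food. Each was also lost without library 2 of daf-16 on BW25113 food or library 1 of daf-16 on hns food. Other libraries ended some of them. Without the filter and with quantile normalization the calls of dpy-7, wrt-10 and hlh-1 were lost as well. The part of hypodermis content in the food differences of mtl-2, cdf-2 and cdr-1 was not tested.

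The genes whose levels tracked each member most closely over the 8 libraries were taken as the 3 with the highest Pearson's r on the log2(FPKM + 1) scale among 10246 genes with a mean of at least 5 FPKM. All 8 libraries enter and share their genotype, food and depth, so r is a description. For mtl-1 these were T19C4.5 (r = 0.982), gpc-1, a G protein gamma subunit gene (0.976), and sdz-24 (0.976). The level of sdz-24 was 22.9 and 14.1 FPKM in wild-type worms fed BW25113, 37.9 and 14.9 FPKM in wild-type worms fed hns, 6.99 and 1.84 FPKM in daf-16 worms fed BW25113 and 6.51 and 3.96 FPKM in daf-16 worms fed hns. As with mtl-1, every mutant value was below every wild-type value and library 1 was the higher one in each group. The choice of sdz-24 by its r with mtl-1 favours such a likeness. For gpc-1 the range was 10 to 16.3 FPKM in wild type and 6.99 to 8.88 FPKM in daf-16, a far smaller span.

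The genes nearest to mtl-2 were the bestrophin gene best-18 (r = 0.946), dhs-4 (0.939) and the collagen gene col-48 (0.936). Those nearest to cdf-2 were the JNK-like kinase gene kgb-1 (0.978), the saposin-like gene spp-16 (0.97) and bath-38 (0.968). For cdf-1 they were the ribosomal protein gene rpl-37 (0.972), lin-40 (0.966) and C33A11.2 (0.963), and for ttm-1 the cystatin gene cpi-2 (0.94), the syntaxin gene syx-17 (0.901) and C46G7.5 (0.897). No gene was shared between these 5 sets. For cdf-1 and ttm-1, which spanned 1.18-fold each, such an r rests on small differences between libraries.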

How the data were processed

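Whole-body RNA of 8 samples was read in 1 deposited table of FPKM values, made by the authors. The submitters' processing notes list TopHat2 2.0.11, Cufflinks 2.2.1 and build ce10. The library kit was Lexogen SENSE mRNA, per the labels' protocols. Neither annotation nor strand use is stated in those sources. In the WBcel235 reference, another build from which only names, transcript lengths and neighbours were taken, no gene overlaps any of the 5 members. FPKM were not counts, so limma-trend (limma 3.58.1 under R 4.3.3) was fitted to log2(FPKM + 1), with 1 mean per group, on the 14564 genes that reached 1 FPKM in 2 or more of the 8 libraries (4 residual and 2.32 prior degrees of freedom). P-values were two-sided and adjusted by Benjamini and Hochberg over all genes tested. The procedure was run on simulated data with changes added to a single group. These were placed only in genes with higher means, and the noise was independent between libraries. The simulation thus did not cover changes of low genes or an effect shared by a replicate number.

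The 7 comparisons were food within each genotype, genotype on each food, both averages and the interaction. The alternatives were a pseudocount of 0.1, no filter, quantile normalization, a replicate block, only the 4 libraries compared, and each library left out. Named genes are the members, daf-16, list members past the threshold (others as levels, some chosen after their values were seen), and the 3 genes most like each member. The members and lists were chosen with earlier results of these data known. Protein and promoter sequences were not used here.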

Additional observations from a re-analysis of the deposited data

How the results depend on the processing

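Over 7 comparisons and up to 13 alternatives the 5 members gave 440 values, of which 400 kept their direction and their side of the threshold, 2 newly passed it and 38 changed sign, none of these past it. The replicate number was not treated as pairing samples, because the labels give it no meaning. Deviations from the group mean correlated at 0.0219 to 0.161 between groups, all above 0, and 15.4% of genes were higher in library 1 of every group. Ratios within a replicate number are descriptions. With the replicate block the genotype difference of mtl-1 averaged over foods, -2.73, passed (limma adjusted p = 0.016, range over 12 alternatives 0.016 to 0.242). The block moved the count of genes past the threshold to 488 from 127 by food in wild type, to 796 from 256 by food averaged and to 253 from 121 by genotype averaged. Without library 2 of wild type on hns food mtl-1 also passed (limma adjusted p = 0.0457). With 1 library left out it ran from -3.21 to -2.26. Also with 1 left out, mtl-1 ran by food from -0.23 to 1.69 in wild type, from -0.43 to 0.67 in daf-16 and from -0.053 to 0.90 averaged, and the interaction from -0.35 to 1.56.

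Values near 0 turned sign when libraries were left out, the cause not tested. By genotype averaged these were cdf-1 (-0.047 to 0.071), mtl-2 (-0.087 to 0.077) and ttm-1 (-0.029 to 0.040). By genotype on BW25113 food they were cdf-1 (-0.15 to 0.089) and mtl-2 (-0.15 to 0.18). On hns food they were cdf-1 (-0.045 to 0.15), cdf-2 (-0.16 to 0.22) and mtl-2 (-0.065 to 0.020). By food they were cdf-1 in wild type (-0.13 to 0.064), in daf-16 (-0.069 to 0.17) and averaged (-0.051 to 0.066), and ttm-1 averaged (-0.064 to 0.0052). For the interaction they were cdf-1 (-0.199 to 0.036) and mtl-2 (-0.13 to 0.199). Quantile normalization turned cdf-2 by food in daf-16 (-0.026), mtl-2 by genotype on BW25113 food (-0.029), cdf-1 by food averaged (-0.036), and cdf-1 (-0.010) and ttm-1 (-0.018) by genotype averaged.

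The count of genes past the threshold was 60 by food in wild type without a filter and 42 with only the 4 libraries compared. By food averaged it was 140 without a filter, and for the interaction 31 against 14. By genotype on BW25113 food it was 25 with quantile normalization and 22 with only the 4 libraries compared, against 38. With 1 library left out it was 35 to 83 by food in wild type, 31 to 61 against 59 by food in daf-16, 78 to 162 by food averaged, 17 to 28 and 12 to 35 (against 34) by genotype on BW25113 and hns food, 47 to 103 by genotype averaged and 13 to 24 for the interaction. With 2 libraries per group, modest changes of cdf-2 cannot be resolved. For mtl-1 the limit was wider, with a residual SD of 0.861 on the log2 scale. Its genotype ratios of the means, 5.89 on BW25113 food and 10.5 on hns food, did not pass (limma adjusted p = 0.328 and 0.287).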
